A study of Homo sapiens with 24 samples.

Results

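MIA PaCa-2 cells, an established human pancreatic carcinoma line, were compared after 8 h of culture with doxycycline and at 0 h in the control (CTRL) line of a Tet-On experiment. CTRL cells carried the doxycycline-responsive vector without the CEBPD cDNA and a red fluorescent reporter, so that the comparison covers whatever doxycycline and 8 h of culture did to cells in which no transgene could be switched on. The 6 libraries concerned, 3 at 0 h and 3 at 8 h, were chosen by their labels from the 24 libraries of the series, which also cover 24 h and 48 h and a C/EBPδ-inducible line. That second line, a pool of 3 clones, carried the same vector with the CEBPD cDNA and a yellow reporter. Its libraries at 0 h and 8 h, 3 of each, were used here for comparison. Doxycycline was given at 2 µg/mL. The labels list this dose for the 0 h samples too, whereas the methods of the study describe untreated cells as the starting point. No library was made from cells kept for 8 h without doxycycline, so drug, culture time and any change of medium cannot be told apart. Replicates were separate wells of the same line, and p-values measure the spread between these wells.

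Doxycycline is a tetracycline antibiotic that blocks bacterial ribosomes and can also slow the ribosomes of mitochondria, which translate the mRNAs of the mitochondrial genome. Cells answer several kinds of stress, among them amino acid shortage, misfolded proteins in the endoplasmic reticulum and impaired mitochondria, through the integrated stress response. In that response phosphorylation of a translation initiation factor lowers general protein synthesis but raises translation of ATF4, a bZIP transcription factor. ATF4 acts as a dimer, often with a C/EBP protein, and its known targets import amino acids, make serine, glycine and asparagine and charge tRNAs. These statements are background and were not tested here.

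Total counts were 17328881 to 19943792 at 0 h and 16413617 to 19793613 at 8 h. Of 60675 gene identifiers, 15253 passed the filter on low counts. Levels are given as CPM, the counts of a gene relative to those of its library, scaled by TMM (trimmed mean of M values) over all 24 libraries, and fold changes come from a fit to the 6 CTRL libraries alone. The 8 h libraries differed more among themselves than the 0 h libraries did. The chi-square statistic per gene between pairs of replicates was 2.72 to 3.41 at 0 h and 5.84 to 16.8 at 8 h. Across 9022 genes, the deviation of a library from its group mean was correlated with GC content at r = 0.74 in 8 h replicate 1 and r = -0.73 in 8 h replicate 3, against r between -0.38 and 0.21 at 0 h. The first principal component (38.8% of variance) separated the times and the second (27.9%) separated 8 h replicates 1 and 3. Counts of called genes are therefore given with and without these libraries. Markers of the carcinoma line were present at unequal levels. VIM was present at 6941 CPM and KRT18 at 1155 CPM at 0 h, while EPCAM stood at 1.14 CPM and CDH1 at 1.05 CPM. Of 7 fibroblast markers COL1A2 alone was tested (647 CPM at 0 h, 466 CPM at 8 h, log2 -0.45, adjusted p = 0.000259 by edgeR), while COL1A1 and COL3A1 were below 1 CPM. KRT18 was also lower at 8 h (log2 -0.28, adjusted p = 0.00547 by edgeR), a call that was lost with upper-quartile scaling, with library totals only, without any one 0 h library and without 8 h replicate 2. The lines differed in these markers at 0 h, with KRT18 at 113 CPM and KRT8 at 74.4 CPM in inducible cells against 1155 and 1561 CPM in CTRL cells, and the part of this difference in the comparison of the lines was not tested. Of 6 leukocyte markers CD68 and LYZ were tested, at 1.23 to 2.02 and 1.73 to 3.71 CPM over the 6 libraries, and neither was called (log2 -0.34 and 0.43). PTPRC, CD3E, PRSS1, INS and GCG had no count in any CTRL library at 0 h or 8 h.

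At an adjusted p below 0.01 (edgeR's quasi-likelihood test, Benjamini-Hochberg), 259 genes (1.7% of those tested) differed between 8 h and 0 h. Of these, 138 were higher (0.905%) and 121 lower (0.793%) at 8 h. Increases were larger than decreases. The median log2 fold change was 0.68 among the higher genes and -0.45 among the lower genes, against 0.01 over all genes tested, and 37 higher genes but 5 lower genes changed more than 2-fold. In all 259 the 3 libraries of one time lay wholly above those of the other, which was so for 26.7% of all genes tested. At an unadjusted p below 0.05 there were 2960 genes. The number of calls changed with the library left out. It was 774 without 8 h replicate 1 and 339 without 8 h replicate 3, but 105 without 8 h replicate 2 and 92 to 96 without any one 0 h library. The share of higher genes among the calls was 53.3%, which became 69% of 284 calls when libraries were scaled by their totals only, and 42.7% of 1054 calls when the trend with GC content was removed.

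Of the 10 largest increases, CHAC1, SLC7A11, VLDLR and DDIT4 were on the list of the integrated stress response. Of 27 genes on that list 23 were tested, 18 rose and none fell, with a median log2 fold change of 1.18. All 23 had a positive log2 fold change. The share of called members was 78.3%. Shares in this and the following lists stand against 1.7% of all genes tested, and some genes are on more than 1 list. CHAC1, which encodes an enzyme that degrades glutathione, showed the largest increase of any called gene. Its level was 2.35, 1.98 and 2.72 CPM in the 0 h libraries and 21.9, 18.5 and 17.3 CPM in the 8 h libraries. The groups were far apart, and the log2 fold change was 3.05 ± 0.14 (SE, n = 3 per group, adjusted p = 1.1e-06), an 8.28-fold increase. SLC7A11, the cystine importer, was next, with 11.9, 11.3 and 11.5 CPM at 0 h and 61.1, 82.3 and 83.6 CPM at 8 h. The 8 h replicate that stood apart by GC content at the high end, replicate 1, was the lowest of the 3 for this gene, and the increase was 6.64-fold (log2 2.73 ± 0.12). DDIT4, an inhibitor of the mTORC1 kinase, rose 3.85-fold from 28.7, 28.3 and 29.9 CPM to 120.2, 106 and 102 CPM. VLDLR, a lipoprotein receptor, rose 4.03-fold from 2.92 to 4.91 CPM at 0 h to 14.4 to 15.7 CPM at 8 h.

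**Figure D1:**
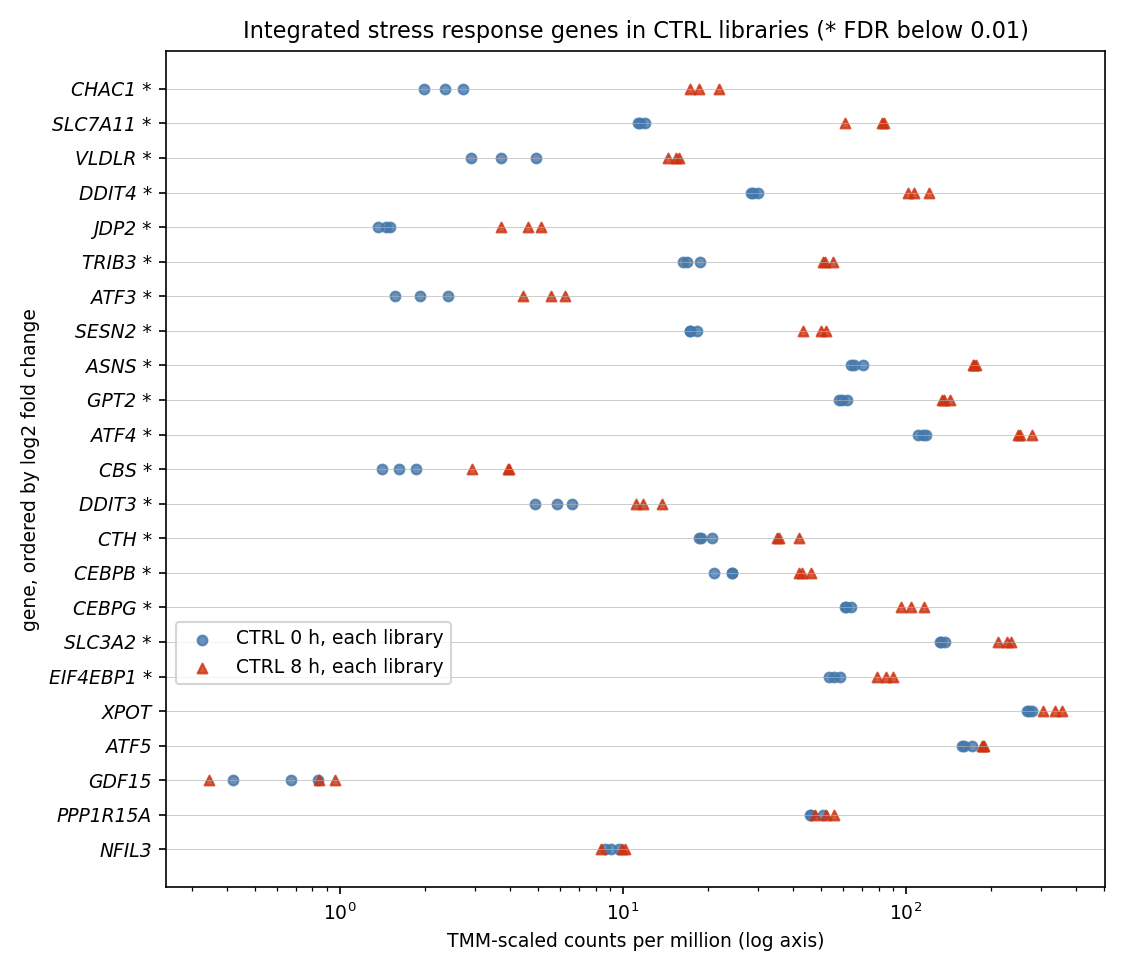
Level of each tested gene of the integrated stress response list in the 3 CTRL libraries at 0 h (circles) and the 3 at 8 h (triangles), in TMM-scaled CPM on a log axis. In the 18 genes marked with an asterisk (adjusted p below 0.01) every triangle lies to the right of every circle. CHAC1 and SLC7A11 show the widest gaps.

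Transcription factors of this response rose together with enzymes and regulators. ATF4 mRNA was at 111, 115 and 117 CPM at 0 h and 278, 249 and 252 CPM at 8 h. It rose 2.32-fold (log2 1.21 ± 0.06, adjusted p = 1.1e-06), and the processed pseudogene ATF4P3, which shares sequence with it, also rose (log2 0.95), so that reads may have been divided between these loci. ATF3, an ATF4 target and itself a bZIP factor, rose from 2.41, 1.92 and 1.57 CPM to 5.57, 4.43 and 6.26 CPM, and DDIT3, which encodes CHOP, from 4.88, 6.59 and 5.86 CPM to 13.8, 11.8 and 11.2 CPM. DDIT3 lies opposite to MARS1 with overlap, and the strand setting of the counting is not given in the sources used here. JDP2, a bZIP repressor, rose by 1.67 on the log2 scale. TRIB3, a pseudokinase that dampens ATF4 activity, rose 3.1-fold from 16.3, 16.8 and 18.7 CPM to 55.4, 51.9 and 50.7 CPM. SESN2, a leucine-sensing inhibitor of mTORC1, rose 2.81-fold and EIF4EBP1, a repressor of cap-dependent translation, by 0.62 on the log2 scale. GPT2, the mitochondrial alanine aminotransferase, rose 2.34-fold, and the transsulfuration enzymes CTH and CBS rose by 0.98 and 1.18 on the log2 scale.

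The other 5 tested members did not pass the threshold. XPOT, the tRNA exportin, had a log2 fold change of 0.31 (adjusted p = 0.0145), and ATF5 one of 0.22 (adjusted p = 0.0337). PPP1R15A, which encodes the stress-induced phosphatase subunit that ends the response, had 0.15 (adjusted p = 0.301). NFIL3 and GDF15 had 0.09 and 0.16, and their libraries overlapped between the times. NUPR1, FGF21, STC2 and ADM2 were too low to be tested. When each of the 6 libraries was left out in turn, 16 to 19 members still passed. ATF3 lost its call in 2 and CBS in 4 of these 6 fits, and the other 16 kept theirs in each. By analysis of variance on log2(CPM + 1) no member was called.

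A motif that ATF4 dimers with C/EBP proteins are known to bind was looked up in the promoters of the genes that rose. The letters TGATGNAA were searched on both strands in the 250 bases before the RefSeq gene start (GRCh38.p14). Of the 138 higher genes 103 had a promoter in that collection and 10 of these (9.71%) held the motif, against 129 of 10126 promoters of all genes tested (1.27%), 870 of 27305 in the whole collection (3.19%) and 1 of 83 promoters of lower genes (1.2%). Of the called stress response genes 15 had a promoter there, and 3 of them (20%), ATF3, ASNS and CHAC1, held the motif. These shares are a description, without a test, and a match is not a binding site. All 10 matches are listed because they show the letters themselves next to genes of amino acid metabolism and stress, with the motif in capitals and each sequence 5′ to 3′ on the strand of the gene. CHAC1, AARS1, HERPUD1, GPX8, GOT1 and IARS1 carry it as its reverse complement.
ASNS, chr7:97872458-97872487, minus strand: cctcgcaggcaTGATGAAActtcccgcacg
CHAC1, chr15:40953251-40953280, plus strand: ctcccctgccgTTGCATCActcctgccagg
AARS1, chr16:70289675-70289704, minus strand: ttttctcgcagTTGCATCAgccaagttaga
HERPUD1, chr16:56931955-56931984, plus strand: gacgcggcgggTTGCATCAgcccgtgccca
GPX8, chr5:55159971-55160000, plus strand: aaaaattataaTTACATCAcaaatactttg
MTHFD1L, chr6:150866346-150866375, plus strand: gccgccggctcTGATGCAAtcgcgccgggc
ATF3, chr1:212565205-212565234, plus strand: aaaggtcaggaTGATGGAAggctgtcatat
GOT1, chr10:99430804-99430833, minus strand: aattgcattggTTGCATCAttctcggcagc
BCAT1, chr12:24949131-24949160, minus strand: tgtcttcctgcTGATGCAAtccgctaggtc
IARS1, chr9:92293698-92293721, minus strand: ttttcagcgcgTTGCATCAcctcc

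The pathways that supply and charge amino acids rose in part. Of 17 tested enzymes of serine, proline and one-carbon metabolism, 7 rose and none fell (41.2% called, median log2 fold change 0.32). PSAT1, which makes phosphoserine, rose 2.38-fold from 130.4, 130.3 and 127 CPM to 277, 308 and 319.7 CPM. PHGDH, the first enzyme of serine synthesis, rose 2.12-fold from 61.3 to 67.4 CPM at 0 h to 125 to 139 CPM at 8 h. PSPH, MTHFD2, MTHFD1L and SHMT2 rose by 0.36 to 0.75 on the log2 scale. PYCR1, an enzyme of proline synthesis, missed the threshold (log2 0.32, adjusted p = 0.0172), as did ALDH1L2 (log2 1.07, adjusted p = 0.044). Asparagine synthetase, ASNS, is counted on the stress response list. It stood at 65.5, 70.6 and 64.1 CPM at 0 h and at 172, 177 and 174 CPM at 8 h, a 2.66-fold increase. The 8 h libraries agreed closely for this gene. A second annotated gene overlaps ASNS on its strand.

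Among 18 tested amino acid transporters 6 rose and none fell (33.3% called, median 0.24), and all 6 calls held when any one library was left out. SLC1A4, which carries alanine, serine and cysteine, rose 3.62-fold, from 13.3, 13.7 and 14.4 CPM to 50, 48.3 and 48.8 CPM. SLC7A5 and SLC3A2, which form the exchanger for large neutral amino acids, rose 1.92-fold and 1.7-fold, the former from 327 to 355 CPM at 0 h to 611 to 664 CPM at 8 h. SLC6A9, a glycine carrier, rose by 1.09 and SLC7A1, a carrier of cationic amino acids, by 0.56 on the log2 scale. SLC7A11 is the sixth. SLC1A5, the glutamine carrier, missed the threshold (log2 0.28, adjusted p = 0.0124), and SLC38A2, another neutral amino acid carrier, had a log2 fold change of -0.25 with an adjusted p of 0.209.

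Calls among the aminoacyl-tRNA synthetases, the enzymes that load amino acids onto tRNAs, were in the cytosolic set. Of 20 cytosolic enzymes 10 rose and none fell (50% called), with a median log2 fold change of 0.21. CARS1 rose by 1.12, GARS1 by 0.82, AARS1 by 0.79, SARS1 by 0.62, YARS1 by 0.59, MARS1 by 0.57, TARS1 by 0.47, EPRS1 and NARS1 by 0.38 and IARS1 by 0.24 on the log2 scale. GARS1, which serves both compartments, went from 293, 299 and 310.3 CPM to 512, 509 and 542 CPM. None of the 17 mitochondrial enzymes was called in either direction, and their median was 0.05. Without any one library 8 to 10 cytosolic enzymes passed. NARS1 lost its call in 4 and IARS1 in 5 of the 6 fits.

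The mRNAs encoded in mitochondrial DNA were lower at 8 h. All 13 were tested, 9 fell and none rose (69.2% called), with log2 fold changes from -0.47 to -0.23 and a median of -0.36. MT-CO1, a subunit of cytochrome c oxidase, stood at 4445, 4636 and 4456 CPM at 0 h and at 3254, 3097 and 3229 CPM at 8 h. It fell by 0.47 ± 0.03 on the log2 scale (adjusted p = 1.33e-05). MT-ND1, of complex I, went from 3575, 3654 and 3616 CPM to 2543, 2478 and 2669 CPM. The libraries of both times were well separated in these genes. MT-CO3, MT-CO2, MT-ND4 and MT-ND5 fell by 0.36 to 0.47, and MT-CYB, MT-ND2 and MT-ATP6 by 0.23 to 0.29. The remaining 4, MT-ATP8, MT-ND3, MT-ND4L and MT-ND6, had log2 fold changes from -0.46 to -0.28 with adjusted p between 0.0201 and 0.0688. Their libraries too were all lower at 8 h. MT-ATP6 overlaps its neighbours MT-ATP8 and MT-CO3, and nuclear copies of mitochondrial genes can share reads.

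As a share of all counts, mitochondrial mRNA fell from 3.33% ± 0.057 to 2.66% ± 0.044 (SD, n = 3), and the 2 sets did not overlap (exact two-sided permutation p = 0.1, the smallest that 3 against 3 allows). Mitochondrial rRNA, which the depletion step removes, varied from 0.0159% to 0.152% among the 8 h libraries and from 0.00837% to 0.087% at 0 h. MT-TT and MT-TF, which encode the tRNAs for threonine and phenylalanine, were among the 10 largest decreases. MT-TT fell from 21.9, 22.1 and 22.6 CPM to 7.83, 9.82 and 9.75 CPM (log2 -1.26 ± 0.10), and MT-TF from 16.4, 16.2 and 19.5 CPM to 7.63, 10.8 and 7.78 CPM (log2 -0.98 ± 0.14). In bulk RNA, fewer cells that hold a transcript and less of it per cell cannot be told apart. Without any one library 6 to 12 of the 13 mRNAs passed. MT-CYB lost its call in 1 of the 6 fits, and MT-ND2 and MT-ATP6 in 4. MT-TF lost its call without any one 0 h library.

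**Figure D2:**
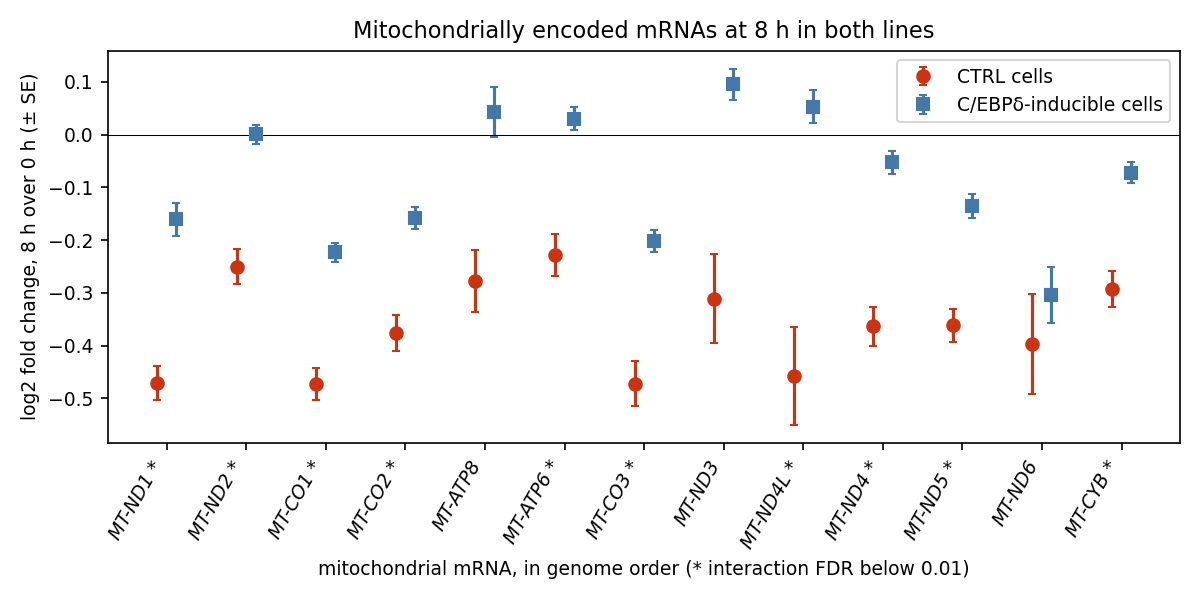
Log2 fold change at 8 h over 0 h of the 13 mitochondrially encoded mRNAs in genome order, in CTRL cells (circles) and C/EBPδ-inducible cells (squares). Bars are standard errors of the fit, and asterisks mark genes whose change differed between the lines at an adjusted p below 0.01. Each circle lies below 0 and below its square.

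Nuclear genes for mitochondrial proteins gave no calls in the lists of respiratory chain subunits, mitochondrial ribosomal proteins, and mitochondrial chaperones and proteases. Some outside these lists rose, such as GPT2 and PCK2. None of 76 tested subunits of the respiratory chain was called, and their median log2 fold change was -0.03 (range -0.20 to 0.31). None of 77 mitochondrial ribosomal proteins was called (median 0.01), and none of 15 mitochondrial chaperones and proteases (median -0.03). The protease LONP1 had a log2 fold change of 0.25 (adjusted p = 0.0351), and the chaperones HSPD1 and HSPA9 had -0.14 and 0.02, with adjusted p of 0.124 and 0.837. A p above the threshold does not show that these genes were equal. Of the 82 cytosolic ribosomal proteins tested none was called, although 77 had a negative log2 fold change (median -0.10). Without 8 h replicate 1, 18 were called lower, and none without any other single library.

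Other stress pathways contributed a few members each. Of 24 tested genes for chaperones of the endoplasmic reticulum and the unfolded protein response, 2 rose and none fell. This was 8.33% of the list, against 1.7% of all genes tested. XBP1, a transcription factor of that response, rose 1.93-fold from 92.5, 95.5 and 93 CPM to 174, 174 and 186 CPM. HERPUD1, which takes part in degradation of endoplasmic reticulum proteins, rose by 0.68 on the log2 scale. The main chaperone of that compartment, HSPA5, was at 636, 692 and 664 CPM at 0 h and 668, 631 and 639 CPM at 8 h, and the groups overlapped (log2 -0.01, adjusted p = 0.9). Of 22 tested NRF2 targets, the antioxidant enzymes, 4 rose (18.2%), with SLC7A11 counted on the stress response list too. They were SLC7A11, HMOX1 (log2 0.80), OSGIN1 (0.64) and TXNRD1 (0.35), while NQO1 and GCLM had -0.11 and 0.04 and were not called. HMOX1, heme oxygenase, went from 20, 19.5 and 20.4 CPM to 34.9, 37.4 and 30.2 CPM. Without any one library 2 to 4 members passed. OSGIN1 lost its call in 4 fits and TXNRD1 in 3.

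Among 24 tested p53 targets and CDK inhibitors 2 rose (8.33%, against 1.7% called over all genes tested). They were SESN2, also on the stress response list, and GADD45A, a growth arrest gene (log2 0.92). CDKN1A, which encodes the CDK inhibitor p21, had 0.45 with an adjusted p of 0.0478. Of 33 tested genes of glycolysis and the hypoxia response, 3 rose and 1 fell (12.1% called). VEGFA, the angiogenic growth factor, rose 2.8-fold from 49.9, 55.8 and 53.1 CPM to 151, 147 and 139.5 CPM. The other members that rose were DDIT4, also on the stress response list, and TXNIP, a brake on glucose uptake (log2 0.62). LDHA, lactate dehydrogenase, fell by 0.22 and lost its call in 4 of the 6 fits. The members that rose are not glycolytic enzymes, and the list had a median of -0.01.

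All 16 tested cytosolic heat shock proteins had a negative log2 fold change (median -0.16), 2 fell (12.5%) and none rose. HSPH1 fell by 0.25 and HSP90AA1, the inducible HSP90, by 0.19. No member was called when libraries were scaled by totals only or with the replicate block, and both lost their call in 4 of the 6 fits that left out a library. None of 27 autophagy and lysosome genes, 16 iron genes and 29 ribosome biogenesis genes was called.

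**Figure D3:**
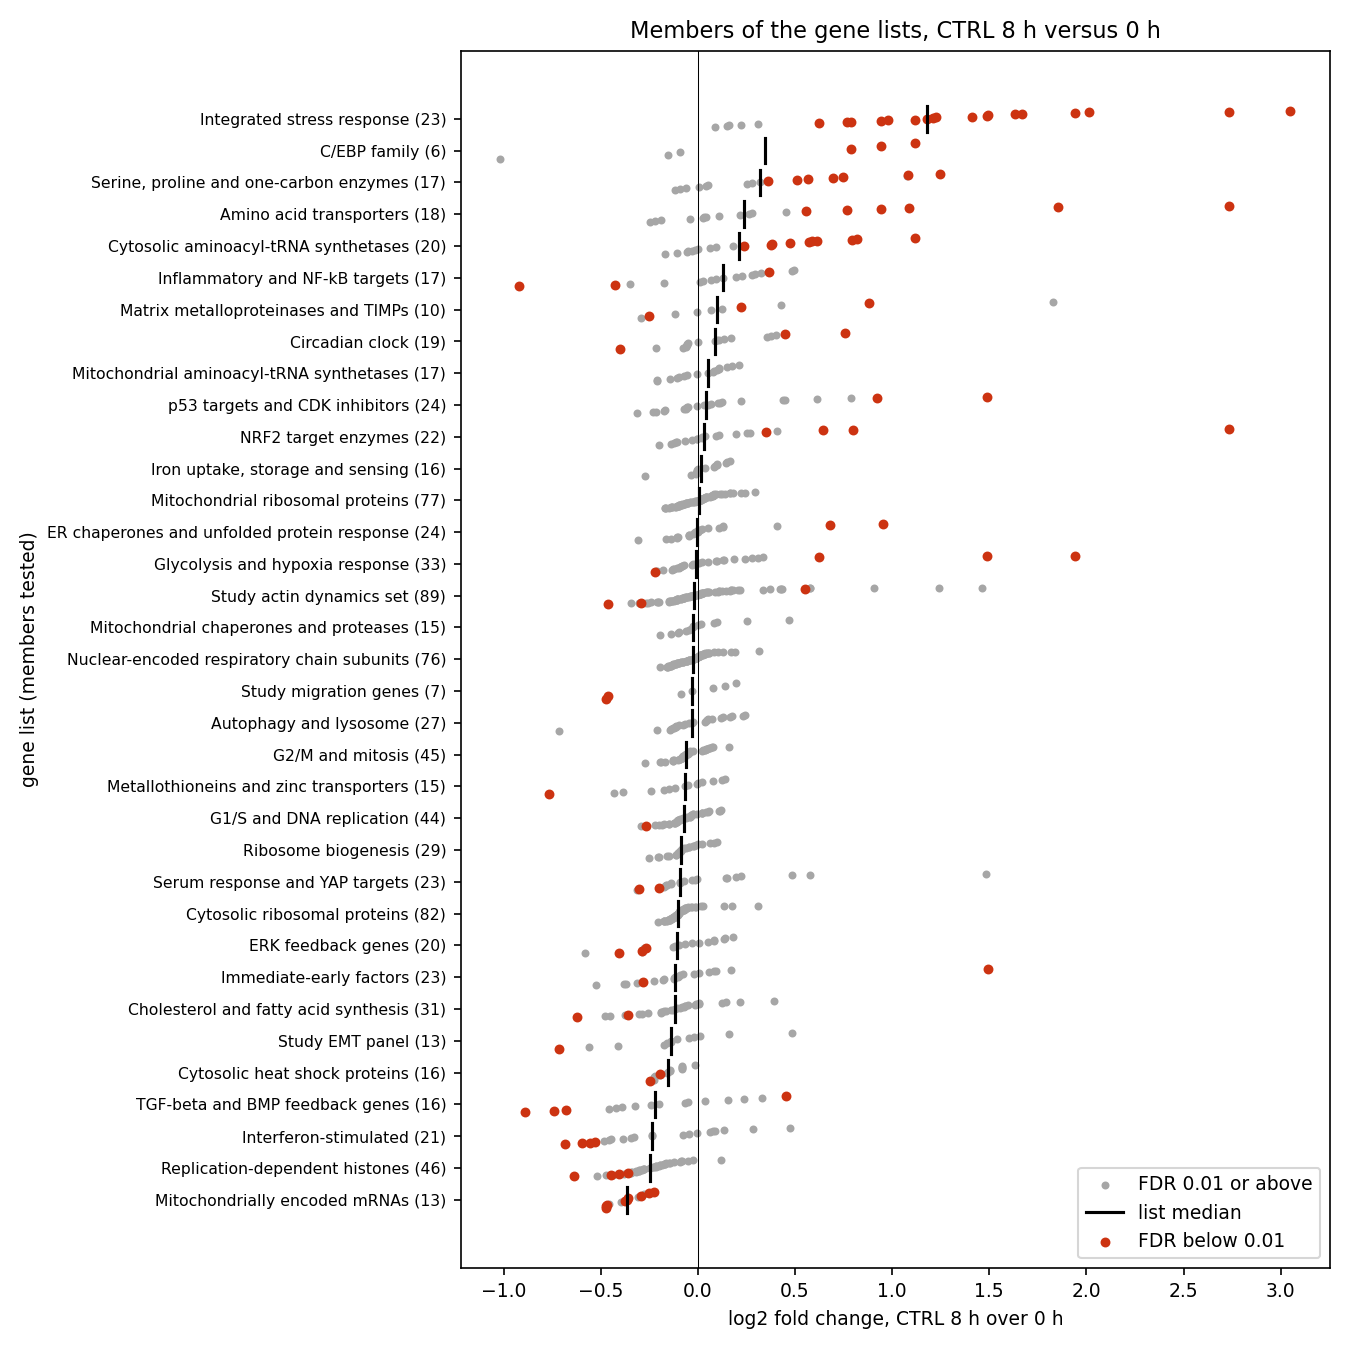
Log2 fold change at 8 h over 0 h in CTRL cells of every tested member of 35 gene lists, 1 list per row and ordered by the list median (black bar). Called genes (adjusted p below 0.01) are red and the others grey, and the number in brackets is the count of members tested. The stress response row reaches from 0.09 to 3.05, and the row of mitochondrial mRNAs lies wholly below 0.

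Several of the largest increases were outside these lists. RAB39B, a small GTPase of vesicle traffic, rose from 1.46, 1.02 and 0.732 CPM to 4.43, 6.29 and 5.52 CPM (log2 2.36 ± 0.24). INHBE, which encodes a secreted activin subunit, rose 4.48-fold from 0.336, 0.599 and 0.471 CPM to 2.27, 1.68 and 2.25 CPM. These are low levels, and the call of INHBE was lost without 0 h replicate 1 or 3. ULBP1, a stress ligand read by natural killer cells, rose 3.3-fold, TSC22D3, a glucocorticoid-responsive leucine zipper protein, 3.73-fold and FAM167A 3.7-fold. TSC22D3 lost its call without any one of the 0 h libraries. PCK2, BCAT1 and GRB10 were picked from the remaining calls after their values were seen. PCK2, the mitochondrial phosphoenolpyruvate carboxykinase, rose by 1.03, BCAT1, a branched-chain amino acid transaminase, by 1.27 and GRB10, an adaptor of insulin signalling, by 1.35 on the log2 scale.

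The called decreases were smaller than the increases, with a median log2 fold change of -0.45 against 0.68. VSIR, an immune checkpoint ligand, showed the largest, from 7.18, 6.53 and 6.8 CPM to 3.05, 2.4 and 2.65 CPM (log2 -1.30 ± 0.13, adjusted p = 0.000354). LGALS3BP, a secreted glycoprotein, went from 18.7, 20 and 18.5 CPM to 10.3, 10.1 and 8.57 CPM, and IRF1, an interferon-regulated transcription factor, from 15.5, 14.6 and 15.4 CPM to 8.13, 7.61 and 7.84 CPM. Both calls held when any one library was left out. HOXA3, a homeobox gene, fell by 0.96 and HOXA-AS2, which lies opposite to it, by 1.06 on the log2 scale. Reads of this pair cannot be told apart without strand. The unnamed gene ENSG00000232110 fell from 88.6, 84 and 84.8 CPM to 46, 39.3 and 41.4 CPM, and it overlaps IFIT2 on the same strand. NOVA2, an RNA-binding protein, fell from 4.37, 3.89 and 3.19 CPM to 1.53, 1.86 and 1.75 CPM and ZNF488 by 1.05 on the log2 scale. NOVA2 lost its call in 5 of the 6 fits that left out a library, and ZNF488 in 3.

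Of 21 tested interferon-stimulated genes 4 fell and none rose (19% called, against 1.7% of all genes tested, median -0.24). IFITM3, a barrier to virus entry, went from 137, 138 and 134 CPM to 95.5, 87.9 and 82 CPM and kept its call in all 6 fits. IFIT2, IFITM1 and DTX3L fell by 0.53 to 0.69 and each lost its call in 4 fits. Among 17 tested inflammatory and NF-kB targets NFKB2 rose and IRF1 and CXCL1 fell (17.6% called). NFKB2 and CXCL1 each lost their call in 4 fits, and NFKB2 also with upper-quartile scaling. In the TGF-beta and BMP list of 16 tested genes, 3 fell and 1 rose (25% called). ID3, an inhibitor of helix-loop-helix factors, fell from 167, 161 and 176 CPM to 111, 102 and 95.7 CPM. ID2 fell by 0.74 and SMAD6, an inhibitory SMAD, by 0.89. Of these 3, ID3 alone kept its call in all 6 fits, and ID2 and SMAD6 each lost theirs in 4.

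The share of called genes, 1.7% over all genes tested, was 15% in the list of ERK feedback genes, 2.27% in that of G1/S and DNA replication, and 8.7% each in those of serum response and YAP targets, immediate-early factors and replication-dependent histones. Of 20 tested ERK feedback genes 3 fell (SPRY1, EPHA4 and CCND1), of 23 serum response and YAP targets 2 (CRIM1 and VCL), and of 23 immediate-early factors FOSL2 fell and ATF3 rose. EGR1 and MYC had log2 fold changes of -0.18 and -0.10 and FOS one of -0.53, with adjusted p of 0.105, 0.265 and 0.0379. CCND1, cyclin D1, was the only call among 44 genes of G1/S and DNA replication, with 301, 303 and 307 CPM at 0 h and 240.4, 249 and 254 CPM at 8 h. None of 45 genes of G2/M and mitosis was called. Of 46 replication-dependent histone genes 45 had a negative log2 fold change (median -0.25) and 4 fell, H1-3, H3C10, H3C13 and H4C15. Near-identical histone copies can share reads, and the count was 24 without 8 h replicate 3, 7 without replicate 1 and 0 without any other library. Apart from ATF3, these called genes of growth lists each lost their call in 4 of the 6 fits.

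Lipid, metal and clock genes also showed a few changes. SCD, the stearoyl-CoA desaturase, fell by 0.36 and INSIG1, a brake on cholesterol synthesis, by 0.62 among 31 tested genes of sterol and fatty acid synthesis (6.45% called). The count of lower genes on this list was 9 without 8 h replicate 1, but 0 to 2 without any other single library. SLC39A8, a zinc and manganese carrier, fell from 219, 191 and 196 CPM to 97.3, 118 and 135 CPM, and was the only call among 15 metallothioneins and zinc transporters. Of 19 clock genes PER2 and TEF rose, by 0.45 and 0.76, and CRY1 fell by 0.40 (15.8% called). MMP1 and MMP10, collagenase and stromelysin, rose among 10 tested metalloproteinases and inhibitors, and TIMP2 fell (30% called). MMP1 was at 1237, 1222 and 1218 CPM at 0 h and 1375, 1390.4 and 1445 CPM at 8 h, a small change of 1.17-fold. Each of these genes lost its call when at least 1 library was left out.

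Of 6 tested C/EBP family genes 3 rose and none fell (50% called, against 1.7% of all genes tested). CEBPB and CEBPG, partners of ATF4, rose 1.92-fold and 1.72-fold together with DDIT3. CEBPB went from 24.3, 20.9 and 24.3 CPM to 46.1, 43 and 41.9 CPM, and all 3 calls held when any one library was left out. Endogenous CEBPD stood at 4.21, 3.71 and 3.92 CPM at 0 h and at 2.02, 1.32 and 2.37 CPM at 8 h. The libraries did not overlap, but the decrease (log2 -1.02 ± 0.20) missed the threshold with an adjusted p of 0.0177. CEBPA and CEBPZ had log2 fold changes of -0.16 and -0.09 and were not called. In other settings 1 member of the family was called lower. These were DESeq2, no filter on low counts, the model of all 24 libraries, removal of the GC trend, and leaving out 8 h replicate 1 or 3.

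Of the 7 migration genes the study singled out on other comparisons of this series, 2 fell (28.6%, against 1.7% called over all genes tested). GSN, which encodes the actin-severing protein gelsolin, went from 155, 153 and 147 CPM to 117, 109 and 97.6 CPM (log2 -0.46 ± 0.07), and ITGB4, a laminin-binding integrin, from 114, 112 and 111 CPM to 84.7, 78.9 and 74.7 CPM (log2 -0.48 ± 0.06). Each lost its call without any one 0 h library and without 8 h replicate 2. EGFR (log2 0.08), AXL (0.20), ETS1 (0.14), NET1 (-0.09) and MYPN (-0.03) were not called. Of 13 tested genes of the EMT panel 1 fell (7.69%) and none rose. S100A4, a calcium-binding protein, fell from 204, 216 and 203 CPM to 129, 124 and 119.7 CPM. The panel was counted here with SDC1, an epithelial proteoglycan, where the study prints SCD1. SDC1 was not called (log2 -0.14), whereas SCD was called lower (log2 -0.36). Of 89 tested genes of the actin dynamics set, HAX1 rose and GSN and NF2 fell. This was 3.37% of the set, against 1.7% of all genes tested, and the median log2 fold change was -0.02. HAX1 lost its call in 1 of the 6 fits that left out a library and GSN and NF2 in 4, and NF2 also with upper-quartile scaling and with library totals only. The study picked the migration genes from its own RNA-seq data, so their count is not independent of these libraries.

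The same interval in C/EBPδ-inducible cells gave 4693 called genes of 15395 (30.5%), in libraries that share none with the CTRL comparison. There CEBPD rose from 21.6 ± 2.36 to 249 ± 15.3 CPM. Of the 138 genes that rose in CTRL cells 126 (91.3%) also rose in the inducible line, 135 had the same sign, and none fell. These 126 were 5.59% of the 2253 genes that rose there. Of the 121 that fell in CTRL cells 118 were tested, 88 (72.7%) fell and 3 rose, and the 88 were 3.61% of 2440. The overlap was not tested against chance, and 14.6% of all genes rose and 15.8% fell in the inducible line. The 3 not tested in that line include HOXA3 and HOXA-AS2, whose levels were near 0 in that line (0.0824 and 0.0458 CPM at 0 h). The lines thus differed before treatment, and MMP1 stood at 1226 ± 9.94 CPM in CTRL and 5.8 ± 1.28 CPM in inducible cells at 0 h.

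**Figure D4:**
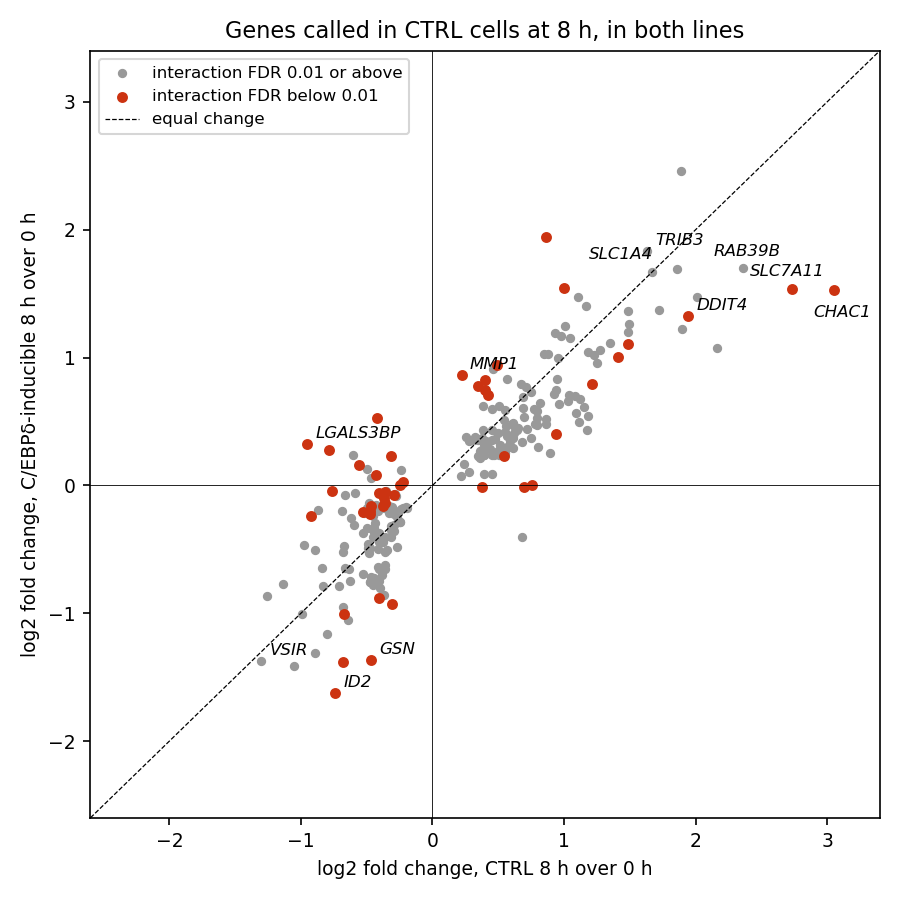
Log2 fold change at 8 h over 0 h in CTRL cells (horizontal) and C/EBPδ-inducible cells (vertical) of the 256 genes called in CTRL cells and tested in both lines. Genes whose change differed between the lines (interaction, adjusted p below 0.01) are red, and the dashed line marks equal change. Most points lie in the lower left or the upper right, with CHAC1 and SLC7A11 below the dashed line.

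The change at 8 h differed between the lines in 269 of 16228 genes (1.66%, interaction term, adjusted p below 0.01), being more positive in inducible cells in 144 (0.887%) and more negative in 125 (0.77%). Among genes called in CTRL cells this was so for 19 of 138 higher genes and 26 of 121 lower genes. In 11 of the 19 and 20 of the 26 the change was nearer to 0 or past it in inducible cells. The genes were called on CTRL libraries that also enter the interaction, and that choice favours a change nearer to 0 in the inducible line. CHAC1 rose from 7.19 ± 0.449 to 20.8 ± 0.836 CPM there (log2 1.53), from a higher start than the 2.35 ± 0.371 CPM of CTRL cells to a like level at 8 h, and the interaction was -1.50 ± 0.17 (adjusted p = 0.000129). SLC7A11 rose from 51.5 ± 1.21 to 150.2 ± 1.84 CPM (log2 1.54, interaction -1.17 ± 0.13). Further members of the stress response with a smaller increase in inducible cells were CEBPB (interaction -0.52), DDIT4 (-0.59), ATF4 (-0.39) and ASNS (-0.38). VEGFA, from the glycolysis and hypoxia list, also rose less (-0.36). TRIB3 rose by 1.83 there and SLC1A4 by 1.69, and neither difference passed the test (interaction 0.23 and -0.14). On the stress response list as a whole 20 members rose in inducible cells, with a median of 0.90 against 1.18.

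The fall of mitochondrial mRNAs was smaller in the inducible line. In inducible cells 7 of 13 fell and the median was -0.07, and the interaction was called for 10 of 13. MT-CO1 fell by 0.22 there (interaction 0.28 ± 0.04, adjusted p = 0.00104), and MT-ND4 had a log2 fold change of -0.05 (interaction 0.34 ± 0.05). LGALS3BP, which fell in CTRL cells, rose from 9.72 ± 0.436 to 12.2 ± 0.623 CPM in inducible cells (interaction 1.30 ± 0.12, adjusted p = 1.94e-05). GSN, ID2 and ID3 fell further in inducible cells, by 1.36, 1.62 and 1.38 on the log2 scale. The interaction count was 131 to 1196 when a library was left out, the highest without CTRL 8 h replicate 3, and the 2 lines differ in clonal origin as well as in the cDNA.

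Levels of the same genes at 24 h and 48 h in CTRL cells are given as values without a test, since those times share the 0 h libraries. CHAC1 was at 10.3 ± 0.964 CPM at 24 h and 10.7 ± 0.989 CPM at 48 h, between its levels at 0 h and 8 h, and SLC7A11 at 33 ± 0.418 and 44.2 ± 5.88 CPM. ASNS stayed near its 8 h level, with 174 ± 3.69 and 196 ± 12.1 CPM. ATF4 was at 191 ± 2.71 and 209 ± 6.57 CPM. HMOX1, at 16.1 ± 0.373 and 12.2 ± 1.3 CPM, and TXNIP, at 125 ± 3.32 and 115 ± 7.77 CPM, lay below their 0 h means of 20 and 141 CPM. Among genes that fell by 8 h, VSIR was at 9.1 ± 0.497 and 11.9 ± 1.54 CPM, above its 0 h mean of 6.83 CPM, and NOVA2 reached 18.7 ± 2.66 CPM at 48 h. S100A4 was at 181 ± 3.95 and 193 ± 7.3 CPM, near its 0 h mean of 208 CPM. MT-CO1 was at 3072 ± 68.4 CPM at 24 h, like at 8 h, and 3748 ± 240.0 CPM at 48 h.

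**Figure D5:**
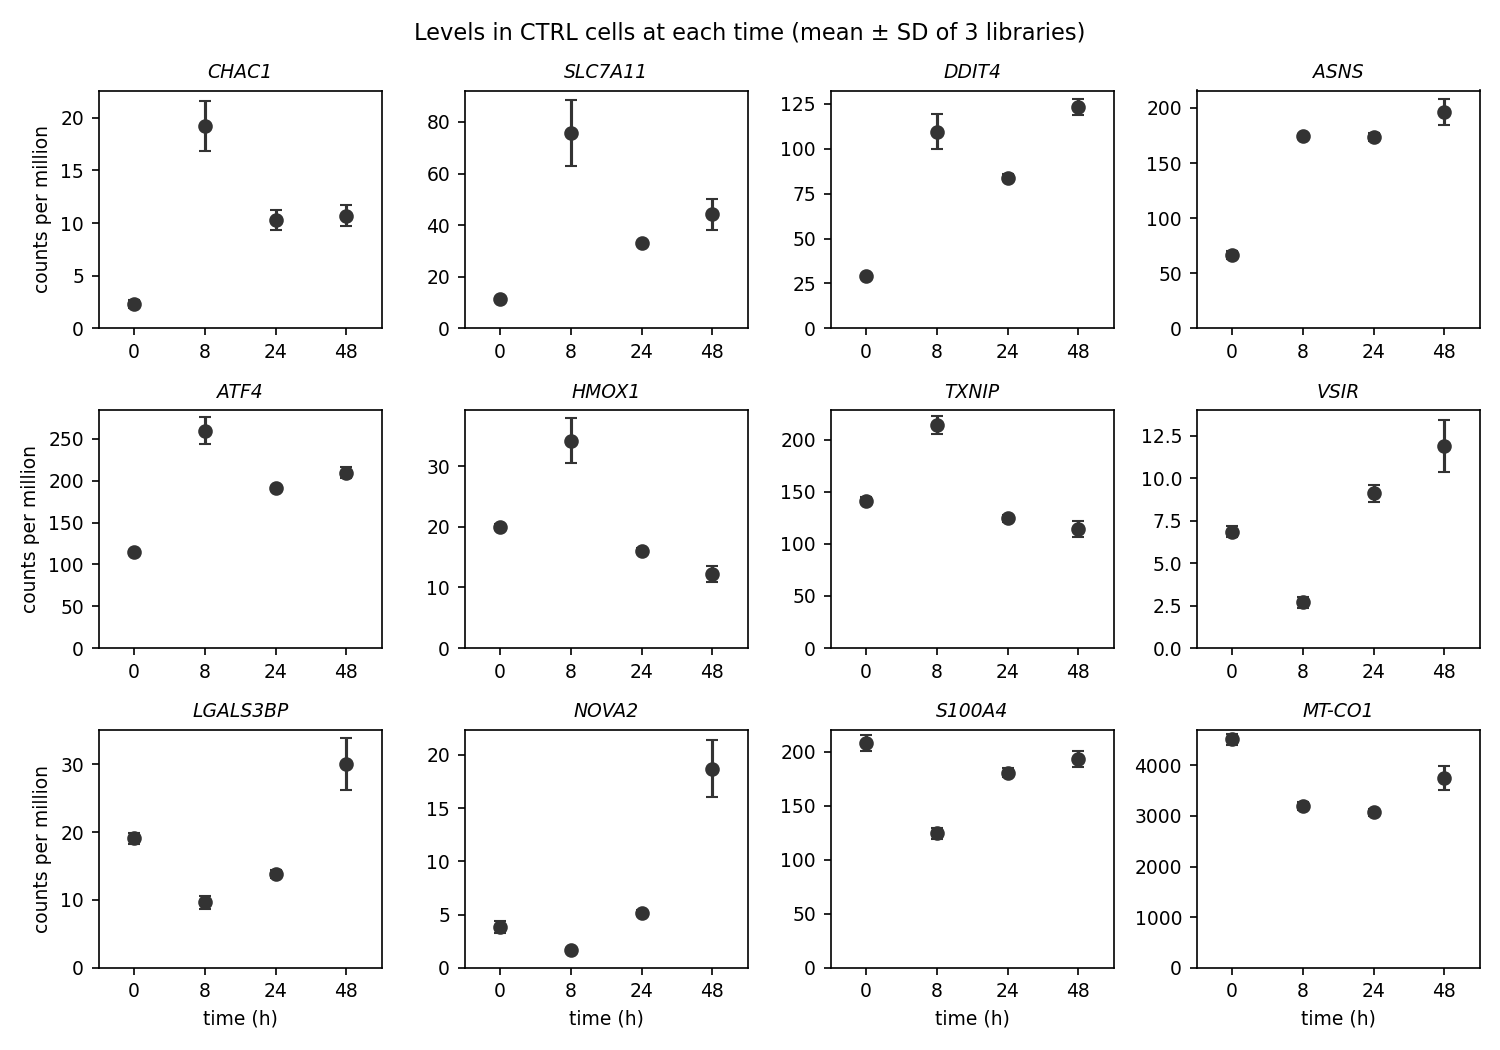
Level of 12 genes in CTRL cells at 0, 8, 24 and 48 h, as mean ± SD of 3 libraries in TMM-scaled CPM, with a vertical axis from 0 for each gene. CHAC1, SLC7A11, HMOX1 and TXNIP are highest at 8 h, ASNS stays high, and VSIR, LGALS3BP, NOVA2 and S100A4 are lowest at 8 h.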

How the data were processed

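RNA of 24 samples was extracted from MIA PaCa-2 cells, depleted of rRNA and sequenced as 50 bp reads on a HiSeq4000. The authors trimmed reads with Trimmomatic (0.36 in the submitters' processing notes), aligned them to GRCh38 with HISAT2 and deposited HTSeq counts per Ensembl gene, raw and not normalized, in 1 table. The strand setting of the counting is not given in the sources used here. Of 60675 identifiers 56558 matched GENCODE 44, which gave symbols and positions, and no column of another series was in the table. In the CTRL libraries 3 counts, taken as the lower limit of detection, were worth 0.148 to 0.18 CPM, and limits of this kind cover counting error only.

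Here the deposited counts were tested with edgeR 4.0.16 (TMM, filterByExpr, glmQLFit and glmQLFTest, two-sided, Benjamini-Hochberg adjusted p below 0.01), as CTRL 8 h against 0 h, as inducible 8 h against 0 h, and as the interaction of line and time over 12 libraries. The standard error is the log2 fold change divided by the square root of the F statistic. The 3 edgeR tests were checked on simulated counts, and the alternatives were not. Alternatives were DESeq2 1.42.0, other scalings and filters, a model of all 24 libraries, an analysis of variance on log2(CPM + 1), a replicate block and leaving out each library. Removal of the GC trend was added after the data were seen. Named genes were the 10 largest changes in each direction (libraries not overlapping, at least 1 CPM in the higher group), the 10 smallest p, called members of the gene lists, genes named by the study and the 5 largest interactions in each direction. The comparison and the lists were chosen with earlier results of these data known, and no list was tested as a set. Some members of the lists are counted but not reported here by name. Promoter sequences are from RefSeq (GRCh38.p14).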

Additional observations from a re-analysis of the deposited data

Results flagged for a closer look

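The change from 0 h to 8 h differed between CTRL and C/EBPδ-inducible cells in 269 genes by a test of the difference itself, the interaction term of edgeR's quasi-likelihood fit at an adjusted p below 0.01. The named genes among them are given with the interaction, the log2 fold change in inducible cells minus that in CTRL cells. With the replicate block 10 of these 34 named interactions lost their call, and by analysis of variance 28 did. All 34 held without CTRL 8 h replicate 1 or 3. Without any other single library 12 to 16 lost their call.

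The interaction was negative for PCAT14 (-2.14), CHAC1 (-1.50), ZDHHC8BP (-1.27), SLC7A11 (-1.17), BTN3A2 (-1.17), GSN (-0.88), ID2 (-0.85), TEF (-0.73), ID3 (-0.67), DDIT4 (-0.59), CEBPB (-0.52), MYPN (-0.50), ATF4 (-0.39), ASNS (-0.38) and VEGFA (-0.36). Of these CHAC1, SLC7A11, DDIT4, CEBPB, ATF4, ASNS and VEGFA rose in both lines and rose less in inducible cells, from a higher level at 0 h. GSN, ID2 and ID3 fell in both lines and fell further in inducible cells. TEF rose in CTRL cells and was not called in inducible cells. PCAT14, ZDHHC8BP and MYPN were not called in CTRL cells and fell in inducible cells, and BTN3A2, a butyrophilin, was not called in CTRL cells and fell there too.

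The interaction was positive for 9 mitochondrial mRNAs that fell in CTRL cells, MT-CO2 (0.24), MT-CYB (0.25), MT-ND5 (0.25), MT-CO1 (0.28), MT-ND2 (0.28), MT-ATP6 (0.28), MT-CO3 (0.30), MT-ND1 (0.34) and MT-ND4 (0.34). It was also positive for MMP1 (0.67), IRF1 (0.70), DTX3L (0.74), SLC39A8 (0.75), LGALS3BP (1.30), LONRF3 (1.46), ABCG1 (1.52), CEBPD (4.56), GPNMB (5.48) and CDH1 (5.79). CDH1, the epithelial cadherin, rose from 0.121 ± 0.114 to 4.76 ± 1.31 CPM in inducible cells, and in CTRL cells its libraries overlapped between the times. CEBPD is the gene carried by the inducible construct. Groups of 3 libraries are too small for a test of single outlying samples.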

How the results depend on the processing

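In CTRL cells the 259 calls became 430 with DESeq2, 843 without a filter on low counts, 1229 in a model of all 24 libraries, 1054 after removal of the GC trend (chosen after seeing the data) and 1 by analysis of variance, and 92 to 774 when 1 library was left out. They were 274 with upper-quartile scaling, 284 with library totals only and 266 with at least 10 counts in every library. Of the 259, 253 were also called by DESeq2 and all 259 without the filter and after removal of the GC trend. The study itself used analysis of variance. By that test no stress response gene, mitochondrial mRNA or cytosolic aminoacyl-tRNA synthetase on the lists was called in CTRL cells. The 4693 calls in inducible cells became 3127 in the model of all 24 libraries and 1239 by analysis of variance, and 3925 to 4345 without 1 library. After removal of the GC trend there were 3348, of which 2419 were among the 4693. The 269 interaction calls became 423 with DESeq2, 936 without the filter and 441 in the model of all 24 libraries. They became 82 by analysis of variance, and 131 to 1196 without 1 library. After removal of the GC trend there were 446, of which 223 were among the 269. With the replicate number as a block there were 87 calls in CTRL cells (85 shared) and 162 interaction calls. The correlations of deviations between same-numbered CTRL libraries at 0 h and 8 h were -0.27, -0.04 and -0.01. Between CTRL and inducible libraries at 8 h they were 0.0688, 0.0826 and 0.0976. The mean for other pairs, -0.041, is no separate reference, because deviations from a group mean cancel within the group. None was over 0.1. Replicate 3 had the highest share of mitochondrial rRNA in each 0 h and 8 h group, but in neither 24 h group. The shares were 0.087% and 0.152% in CTRL cells and 0.0162% and 0.623% in inducible cells. No shared batch is stated, so the main fit held no block, and whether the numbers pair the samples was not tested. Genes that were not called changed sign: VIM (0.0234) and MYPN (0.0155) with library totals only, and GSK3B with DESeq2 (-0.00627), no filter (-0.0174), all 24 libraries (-0.0178), the GC trend removed (-0.00937), and without some single libraries (range of leave-one-out values -0.0811 to 0.0856). PCAT14 ranged from -0.486 to 0.0686 when a CTRL library was left out. No called gene named here changed direction. Of the 108 called genes named, 58 kept their call without any one library. The cause of these shifts was not tested.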
